A study of Mus musculus with 8 samples.

Results

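The subunits of the NMDA receptor were followed as a gene family in RNA-seq of cells sorted from mouse cortex. The 6 genes were Grin1, Grin2a, Grin2b, Grin2c, Grin2d and Grin3a, taken by symbol from the 55573 gene IDs in each count file, and all 6 passed the filter on low counts. Each library held cells labelled as parvalbumin-positive interneurons, collected by fluorescence-activated sorting from PV-Cre/tdTomato mice on a C57BL/6 background, in which Cre from the parvalbumin locus switches on a tdTomato reporter. The groups were KO at 18 months, WT at 18 months, KO at 6 months and WT at 6 months. KO mice carried Dnmt1 loxP2, in which Cre removes exons 4 and 5 of the DNA methyltransferase gene Dnmt1, and WT mice carried Dnmt1 wild-type with the same driver and reporter. The floxed allele was brought in from B6;129Sv mice. Each group had 2 libraries, described as technical replicates of cells pooled from 6 mice of each genotype, so p-values measure only the spread between such libraries.

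NMDA receptors are ion channels opened by glutamate together with glycine or D-serine. An obligatory GluN1 subunit, encoded by Grin1, assembles with GluN2 subunits (Grin2a to Grin2d) and in some cells with GluN3 subunits such as that of Grin3a. GluN2 subunits set the kinetics and the magnesium block of the channel, and GluN3A lowers its calcium permeability. In rodent forebrain Grin2a and Grin2b are the main GluN2 genes of neurons, with Grin2a gaining on Grin2b after birth, and Grin2d is known from interneurons. Grin2c is best known from cerebellar granule cells and, in the cortex, from astrocytes. Grin3a has been described in neurons and in cells of the oligodendrocyte lineage. Grin1, Grin2a, Grin2b and Grin2d were therefore taken as the neuronal subunits and Grin2c as the glial one, and Grin3a was placed in neither class. These classes rest on what is known of the genes, and which cells gave the reads was not tested.

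Library totals lay between 6008175 and 13551218 reads. The parvalbumin label was not borne out by the counts: Pvalb, which encodes parvalbumin, had at most 2 reads in any library and 0 reads in KO at 6 months, which allows up to 3 in that group. Of 10 parvalbumin interneuron markers 2 exceeded 10 CPM (reads scaled to a common library size) in all libraries, and of 8 GABA neuron markers 0 did. In WT at 6 months, Gad1 (129 CPM), Gad2 (24.1), Dlx1 (22.2) and Slc32a1 (12) of the GABA list exceeded 10 CPM on average. Among the parvalbumin markers Erbb4 (103), Kcnc1 (61.8), Nxph1 (42.4), Cplx1 (20) and Kcnip2 (12.4) did so. Of these, Erbb4 was higher in every other group (131 CPM in KO and 153 CPM in WT at 18 months, 119 CPM in KO at 6 months). Nxph1 also exceeded 10 CPM on average in each group. All 14 astrocyte and all 12 oligodendrocyte markers exceeded 10 CPM in all libraries. Values below are those of a mixture in which glial RNA was abundant. In bulk RNA of this kind, fewer cells of a type and less RNA per cell cannot be told apart. The WT libraries at 6 months stood apart, with correlations of log2 CPM of 0.884 to 0.942 with libraries of other groups, against 0.951 to 0.973 among libraries of the other 3 groups. The targeted gene Dnmt1 was at 75.4 ± 1.64 CPM in KO and 80.9 ± 0.217 CPM in WT at 18 months, and at 76.2 ± 1.39 CPM in KO and 101 ± 4.03 CPM in WT at 6 months (SD, n = 2). The 6-month level was lower in KO by edgeR (-0.40 on the log2 scale, SE 0.0736, adjusted p = 1e-04), and the 18-month one was not called (-0.10, adjusted p = 0.281). Reads from exons that Cre leaves in place count towards it, so it is a weak check of the deletion.

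The genes lie apart in the genome (mm10). Grin1 (ENSMUSG00000026959) spans 25291181 to 25319187 on chromosome 2, and Grin2c (ENSMUSG00000020734) spans 115249169 to 115267243 on chromosome 11. Grin2a (ENSMUSG00000059003) spans 9567898 to 9995560 on chromosome 16, Grin2b (ENSMUSG00000030209) spans 135713233 to 136173511 on chromosome 6, Grin2d (ENSMUSG00000002771) spans 45831883 to 45878378 on chromosome 7, and Grin3a (ENSMUSG00000039579) spans 49661611 to 49845744 on chromosome 4. All are on the minus strand. The annotated exons of Grin1 share 1307 bases, 13.5% of its exon length, with the antisense gene Grin1os, and those of Grin2d share 643 bases (9.66%) with the antisense gene Gm45441. Their reads cannot be told apart if counting ignored strand, a setting that the sources used here do not give. Grin1os had 77 reads over all libraries beside 1832 of Grin1, and Gm45441 had 18 beside 281 of Grin2d.

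Because DNMT1 methylates cytosine in CG pairs, the promoter windows of the obligatory subunit and of the glial subunit are shown with every CG in capitals. They run from 250 bases before to 50 bases after the start, are read 5′ to 3′ on the minus strand, and come from RefSeq (GRCm38.p6, the assembly behind mm10). The Grin1 window is chr2:25319138-25319437 and the Grin2c window is chr11:115267194-115267493.
Grin1: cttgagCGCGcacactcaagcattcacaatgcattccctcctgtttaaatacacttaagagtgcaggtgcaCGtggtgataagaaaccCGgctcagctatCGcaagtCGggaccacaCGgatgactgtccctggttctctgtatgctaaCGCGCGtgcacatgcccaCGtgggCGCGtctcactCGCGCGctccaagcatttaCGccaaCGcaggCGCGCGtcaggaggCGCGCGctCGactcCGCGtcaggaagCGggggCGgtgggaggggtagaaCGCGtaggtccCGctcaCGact
Grin2c: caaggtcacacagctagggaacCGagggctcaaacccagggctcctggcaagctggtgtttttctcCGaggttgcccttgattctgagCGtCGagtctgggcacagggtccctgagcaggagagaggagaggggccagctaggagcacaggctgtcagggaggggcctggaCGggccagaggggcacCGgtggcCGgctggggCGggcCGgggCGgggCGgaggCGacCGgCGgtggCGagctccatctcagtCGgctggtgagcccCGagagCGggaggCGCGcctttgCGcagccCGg
The Grin1 window held 33 CG pairs, a count that 92.3% of 32841 RefSeq windows of this length did not exceed, and the Grin2c window held 22 (78.5%). The median window held 7. The GC box GGGCGG, searched on both strands and containing a CG itself, was present 1 time in the Grin1 window and 3 times in that of Grin2c, and 35.7% of all windows held at least 1. The Grin2d window, at chr7:45866632-45866931, held 12 CG pairs and no GC box; its RefSeq start lies within the GENCODE gene. Grin2a, Grin2b and Grin3a were not among the windows used. Methylation of these sites was not analysed here.

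Transcripts of the glial subunit outnumbered those of all others. Per kb of exon, Grin2c was at 69.6 ± 3.77 CPM per kb in KO and 42.6 ± 0.388 in WT at 18 months, and at 80.5 ± 6.51 in KO and 178 ± 6.09 in WT at 6 months (SD, n = 2). It made up 94.2% ± 0.176 of the family's reads per kb in KO and 89.1% ± 0.102 in WT at 18 months, while at 6 months it made up 88.8% ± 0.0287 in KO and 85.7% ± 0.443 in WT. The obligatory subunit Grin1 made up 0.416% ± 0.134 in KO and 1.1% ± 0.169 in WT at 18 months, while at 6 months it made up 2.5% ± 0.192 in KO and 5.17% ± 0.117 in WT. Grin3a was near 3% of the family in KO at 18 months (3.15% ± 0.234), KO at 6 months (3.14% ± 0.0327) and WT at 6 months (2.98% ± 0.0149), and 6.2% ± 0.299 in WT at 18 months. Among Grin2a, Grin2b and Grin2d, Grin2b made up 80% ± 0.577 in KO and 52.3% ± 1.61 in WT at 18 months, while at 6 months it made up 62.8% ± 2.66 in KO and 58.7% ± 0.0816 in WT. Lengths are those of all annotated exons joined, 5037 bases for Grin2c and 24842 for Grin2b, and isoforms in use may be shorter.

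**Figure D1:**
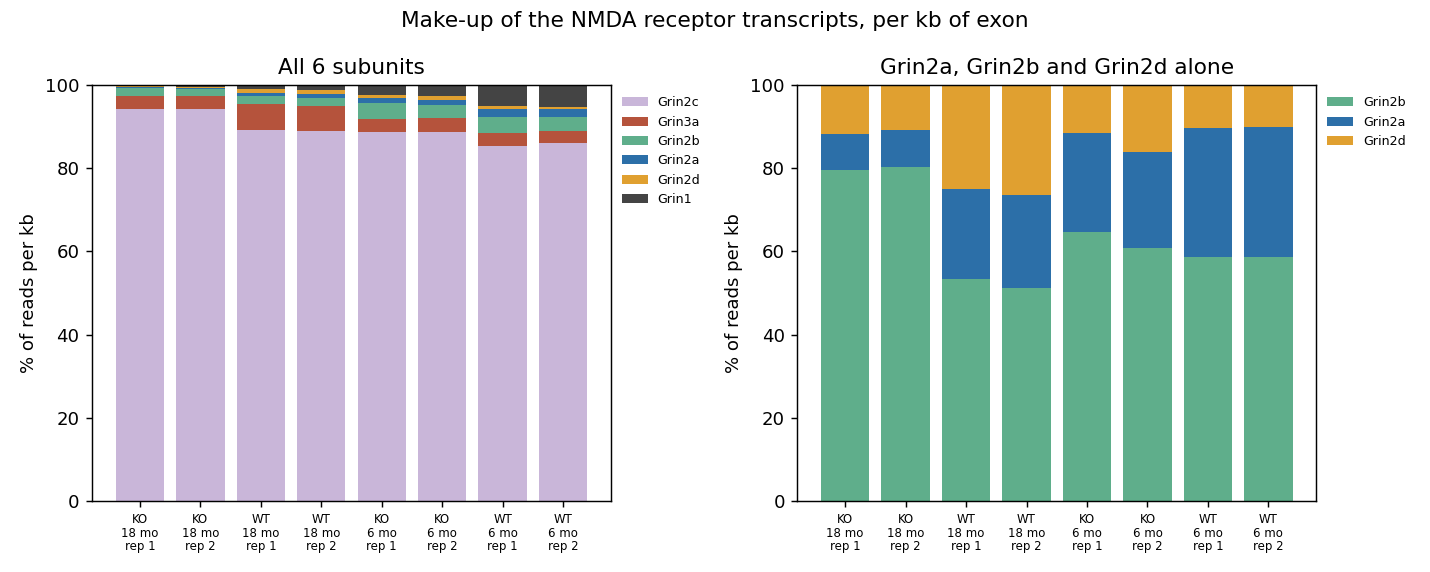
Share of each subunit in the NMDA receptor reads, in percent of reads per kb of exon, for each of the 8 libraries. The left panel stacks all 6 genes and the right panel Grin2a, Grin2b and Grin2d alone. Grin2c fills at least 85.7% of each group on average, and Grin2b is 80% of the right-hand bars in KO at 18 months.

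The order of levels below Grin2c changed between groups. In WT at 6 months Grin1 followed at 10.7 ± 0.555 CPM per kb, then Grin2b (7.5 ± 0.457), Grin3a (6.19 ± 0.149), Grin2a (3.97 ± 0.205) and Grin2d (1.31 ± 0.0991). In KO at 6 months Grin2b came next at 3.15 ± 0.0238 CPM per kb, then Grin3a (2.85 ± 0.259) and Grin1 (2.27 ± 0.357), with differences about as large as the spread of Grin3a and Grin1, before Grin2a (1.17 ± 0.0161) and Grin2d (0.696 ± 0.182). In KO at 18 months Grin3a stood second at 2.33 ± 0.0511 CPM per kb and Grin2b next at 1.33 ± 0.0341. Grin1 (0.31 ± 0.115), Grin2d (0.188 ± 0.00957) and Grin2a (0.145 ± 0.00611) were at the bottom of that group, where the spread of Grin1 makes its lead over Grin2d small. In WT at 18 months Grin3a (2.96 ± 0.113) and Grin2b (0.911 ± 0.0393) again came before Grin1 (0.526 ± 0.0862), Grin2d (0.45 ± 0.0504) and Grin2a (0.384 ± 0.0392), where the libraries of Grin1 and Grin2d overlapped and those of Grin2d lay just above those of Grin2a.

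**Figure D2:**
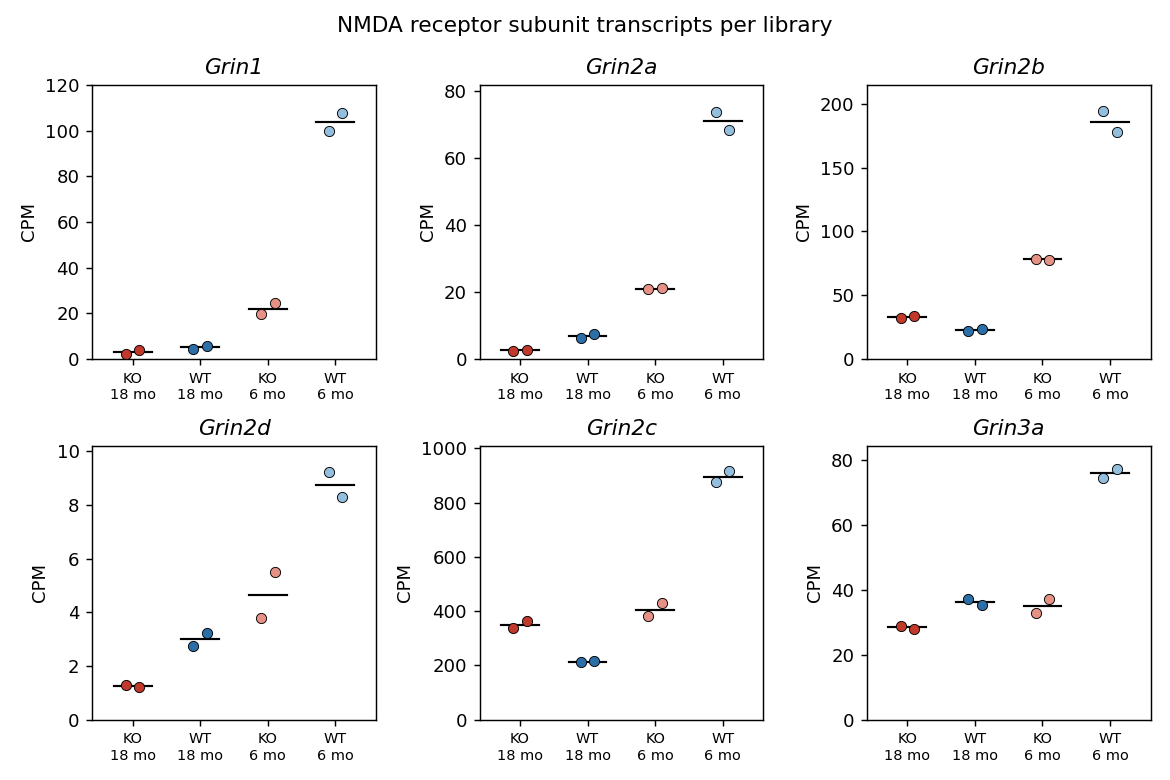
Level of each subunit gene in CPM (scaled library totals) in KO and WT libraries at 18 and 6 months. Points are libraries, bars are means of 2 libraries, and each panel has its own axis from 0. WT at 6 months is the highest group for all 6 genes, at 104 CPM for Grin1 and 896 CPM for Grin2c.

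At 18 months the family split in its response to the genotype. Grin2c and Grin2b were higher in KO, while Grin1, Grin2a, Grin2d and Grin3a were lower. All 6 were called by edgeR's quasi-likelihood test (adjusted p at most 0.05 over 18205 genes), 2 higher and 4 lower, where 32.1% of all genes tested were called, 14.7% higher and 17.4% lower. The median log2 fold change was -0.58 over the 6 and 0 over all genes.

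Grin1, without which no NMDA receptor reaches the surface, had 2.21 and 3.8 CPM in KO libraries at 18 months, against 4.51 and 5.7 CPM in WT libraries (29 and 44 reads against 36 and 74). The KO values lay below the WT values, with a log2 fold change of -0.82 (SE 0.246, edgeR adjusted p = 0.0126). That call was lost without KO replicate 1 at 18 months (-0.46, adjusted p = 0.252) and without WT replicate 2 at 18 months (-0.58, adjusted p = 0.251). Grin2a, the GluN2 gene of mature synapses, had 2.52 and 2.67 CPM in KO, against 6.39 and 7.39 CPM in WT. Both KO libraries were below both WT libraries, and Grin2a fell 2.69-fold (SE 0.202 on the log2 scale, edgeR adjusted p = 5.74e-06). Grin2d, the GluN2 gene known from interneurons, had 1.3 and 1.21 CPM in KO, against 2.76 and 3.23 CPM in WT. It fell 2.41-fold (edgeR adjusted p = 0.00436), a call lost without WT replicate 2 (adjusted p = 0.0824).

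Grin2b, the GluN2 gene that dominates in early life, went the other way. It had 32.4 and 33.6 CPM in KO libraries at 18 months, against 21.9 and 23.3 CPM in WT libraries. KO lay above WT without overlap, and Grin2b rose 1.45-fold (log2 fold change 0.54, SE 0.0926, edgeR adjusted p = 7.08e-05). Grin2c had 337 and 364 CPM in KO, against 213 and 216 CPM in WT. It rose 1.63-fold (log2 fold change 0.71, SE 0.0616, edgeR adjusted p = 3.79e-09), again without overlap. Grin3a had 29 and 28.1 CPM in KO, against 37.4 and 35.4 CPM in WT, and was the member with the smallest change, 1.27-fold lower (edgeR adjusted p = 0.00756). Its call was lost without KO replicate 2 (adjusted p = 0.0504) and without WT replicate 1 (adjusted p = 0.068).

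At 6 months the whole family was lower in KO. All 6 genes were called lower, where 19.6% of all genes tested were called lower and 38.8% in either direction. The median log2 fold change of the 6 was -1.19, against 0 over all genes. In each of the 6 genes both KO libraries lay below both WT libraries. The share of all genes that separate in this way was not computed, so the count of 6 cannot be weighed against it.

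Grin1 had the largest fold of the 6 at this age, with 19.6 and 24.5 CPM in KO libraries and 100 and 108 CPM in WT libraries. It fell 4.73-fold (SE 0.125 on the log2 scale, edgeR adjusted p = 8.53e-13). Grin2a had 20.8 and 21.3 CPM in KO, against 73.7 and 68.5 CPM in WT, 3.38-fold lower (edgeR adjusted p = 9.34e-12). Grin2b had 78.6 and 77.7 CPM in KO, against 194 and 178 CPM in WT, 2.38-fold lower (edgeR adjusted p = 1.7e-12). The KO libraries were close to each other in both GluN2 genes. Grin2d had 3.78 and 5.49 CPM in KO, against 9.22 and 8.28 CPM in WT. It fell 1.89-fold (edgeR adjusted p = 0.00563), and its call was lost without KO replicate 1 (log2 fold change -0.67, adjusted p = 0.115). Grin2c had 382 and 429 CPM in KO, against 874 and 917 CPM in WT, 2.21-fold lower (log2 fold change -1.14, SE 0.0606, edgeR adjusted p = 4.4e-13). Grin3a had 32.8 and 37.2 CPM in KO, against 74.7 and 77.3 CPM in WT, 2.17-fold lower (edgeR adjusted p = 1.05e-09). All of these set KO against the WT group whose libraries stood apart.

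**Figure D3:**
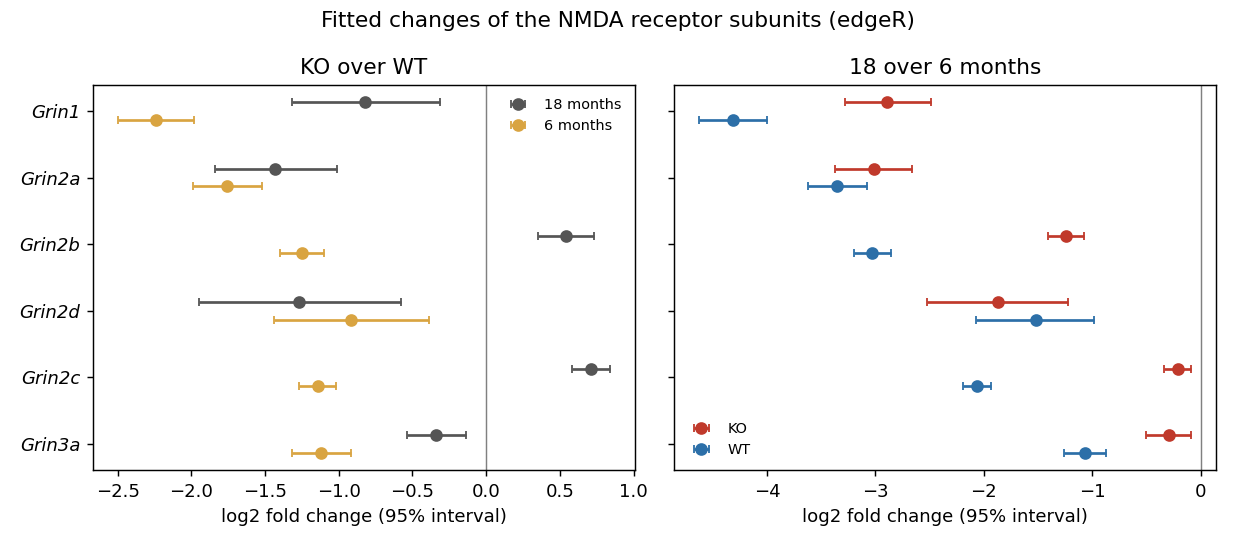
Log2 fold changes of the 6 subunit genes fitted by edgeR with 95% intervals, for KO over WT at 18 and at 6 months (left) and for 18 over 6 months in KO and in WT (right). Grin2b and Grin2c lie right of 0 in the left panel at 18 months (0.54 and 0.71) and left of it at 6 months (-1.25 and -1.14).

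The difference between the ages was tested by the interaction term, the log2 KO effect at 18 months less that at 6 months. It was positive and called for 4 of the 6 genes, where 39.1% of all genes were called, 18.4% with a positive and 20.7% with a negative sign. Grin2c had 1.85 (SE 0.0864, edgeR adjusted p = 2.53e-14), Grin2b 1.79 (SE 0.117, adjusted p = 8.44e-12), Grin1 1.43 (SE 0.287, adjusted p = 0.000289) and Grin3a 0.78 (SE 0.136, adjusted p = 5.56e-05). Only Grin2b and Grin2c among the 6 changed sign between the ages. Grin2a (0.33, 95% interval -0.17 to 0.83, edgeR adjusted p = 0.304) and Grin2d (-0.35, -1.21 to 0.51, adjusted p = 0.546) were not called, and their intervals leave room for sizeable differences.

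With age, all 6 genes were called lower in KO and all 6 in WT. In KO 17.9% of all genes tested were called lower and 31.7% either way, and in WT 30.8% and 59%. In KO the neuronal subunits moved most: Grin2a fell 8.08-fold (edgeR adjusted p = 2.25e-12), Grin1 7.4-fold (4.77e-11), Grin2d 3.66-fold (6.57e-05) and Grin2b 2.37-fold (2.94e-11) at 18 against 6 months. Grin2c was 1.16-fold lower (log2 fold change -0.21, edgeR adjusted p = 0.00956) and Grin3a 1.22-fold lower (-0.29, adjusted p = 0.0268). The small Grin2c call was lost without KO replicate 2 at 6 months (-0.12, adjusted p = 0.283) and without KO replicate 1 at 18 months (-0.15, adjusted p = 0.134). That of Grin3a was lost without KO replicate 2 at 6 months (-0.19, adjusted p = 0.34), without KO replicate 1 (0.0902) or replicate 2 (0.119) at 18 months, with no filter on low counts (0.0935) and with DESeq2 (0.12).

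In WT the fitted age difference was larger than in KO for 5 of the 6 genes, of which Grin2a was not called in the interaction. Grin1 was 19.9-fold lower in the older WT cells (SE 0.152 on the log2 scale, edgeR adjusted p = 4e-17), the largest age difference of the family, Grin2a 10.2-fold and Grin2b 8.18-fold. Grin2d was 2.87-fold lower in WT, a smaller fold than in KO. Grin2c was 4.17-fold lower (edgeR adjusted p = 4.72e-18) and Grin3a 2.1-fold lower (adjusted p = 5.44e-10). The difference of these age effects between KO and WT is the interaction given above. The age comparison in WT and the genotype comparison at 6 months share the WT libraries at 6 months.

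Glial and neuronal subunits were set against each other within each library, where scaling between libraries plays no part. Reads of Grin2c were 8.76 and 8.81 times the summed reads of Grin1, Grin2a, Grin2b and Grin2d in KO libraries at 18 months, against 5.99 and 5.45 times in WT libraries. At 6 months they were 3.12 and 3.33 times in KO libraries, against 2.32 and 2.53 times in WT libraries. The ratio to the summed reads was thus higher in KO than in WT at both ages and higher at 18 than at 6 months in both genotypes, without overlap. The log2 difference of KO from WT was 0.62 at 18 months and 0.41 at 6 months, and that of 18 from 6 months was 1.45 in KO and 1.24 in WT. An exact two-sided permutation test gave p = 0.333 in each of these 4 comparisons, the smallest value that 2 against 2 libraries allow, also after adjustment over the 4. Against Grin1 alone, the log2 difference was 1.51 (KO from WT, 18 months), 1.1 (KO from WT, 6 months), 2.71 (18 from 6 months, KO) and 2.3 (18 from 6 months, WT). Not every gene of the neuronal class shared these directions. Grin2b held the most reads of that class in every library. In KO replicate 1 at 18 months it had 425, beside 29 of Grin1, 33 of Grin2a and 17 of Grin2d. In both genotype comparisons Grin2b had the direction of Grin2c, so the sum is a mixed measure of neuronal subunits. By fitted fold, Grin2b fell about as much as Grin2c in KO at 6 months (2.38-fold and 2.21-fold). Grin2d, at low counts, fell less than Grin2c there (1.89-fold) and with age in WT (2.87-fold against 4.17-fold).

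Ratios among the neuronal subunits were examined after their values had been seen and are given without a test. Grin2a reads were 0.0776 and 0.0795 times those of Grin2b in KO libraries at 18 months, against 0.291 and 0.317 times in WT libraries. At 6 months the ratio was 0.265 and 0.273 in KO, against 0.38 and 0.385 in WT. KO at 18 months thus had the lowest ratio of these groups. Grin1 reads were 0.0633 and 0.105 times those of Grin2a and Grin2b together in KO at 18 months, against 0.159 and 0.185 times in WT, and 0.197 and 0.247 times in KO at 6 months, against 0.374 and 0.437 times in WT.

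**Figure D4:**
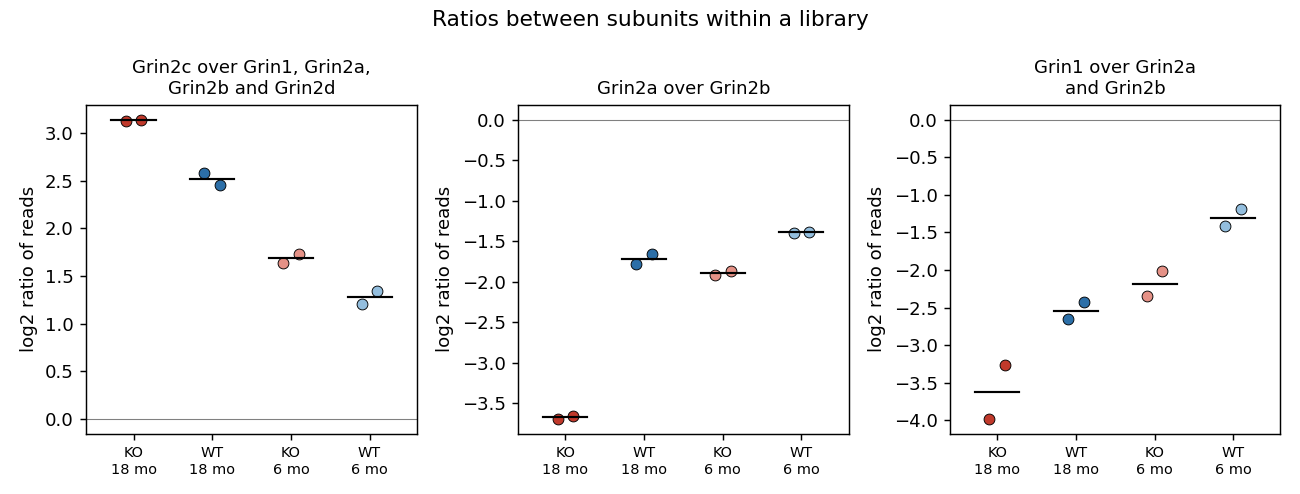
Log2 ratios of reads between subunits within each library, by genotype and age. Points are libraries and bars are means of 2 libraries. Grin2c gains on the summed neuronal subunits at 18 months (log2 ratio 3.14 in KO and 2.51 in WT, against 1.69 in KO and 1.27 in WT at 6 months), and Grin2a over Grin2b is lowest in KO at 18 months (-3.67).

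Cell type markers moved with these results. The 14 astrocyte markers summed to 12410 to 12460 CPM in KO and 5835 to 5882 CPM in WT at 18 months, and to 10440 to 10530 CPM in KO and 17420 to 17540 CPM in WT at 6 months. All 14 were called in the same direction as Grin2c in both genotype comparisons, 14 higher at 18 months and 14 lower at 6 months. Between the ages, 14 were lower at 18 months in WT, as Grin2c was, while in KO 11 were higher and 0 lower (median log2 fold change 0.28), against a Grin2c value of -0.21. Per 1000 CPM of these markers, Grin2c was at 28.2 ± 1.44 CPM in KO and 36.6 ± 0.126 CPM in WT at 18 months, and at 38.7 ± 2.9 CPM in KO and 51.2 ± 1.5 CPM in WT at 6 months. On that scale Grin2c was lower in KO at both ages, so the increase at 18 months did not hold relative to astrocyte markers. The part of the cell mix in these results was not tested.

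The 12 general neuron markers summed to 413.2 to 421.6 CPM in KO and 405.9 to 413.3 CPM in WT at 18 months, and to 597.1 to 623 CPM in KO and 1064 to 1094 CPM in WT at 6 months. Their counts were 2 higher and 6 lower at 18 months and 0 higher and 7 lower at 6 months, and 5 of the 12 exceeded 10 CPM in all libraries. The 8 GABA neuron markers summed to 9.489 to 10.08 CPM in KO and 18.78 to 18.81 CPM in WT at 18 months, and to 33.79 to 34.13 CPM in KO and 195.2 to 200.9 CPM in WT at 6 months. The 10 excitatory neuron markers summed to 174.6 to 192.1 CPM in KO and 119 to 120 CPM in WT at 18 months, and to 233.3 to 237.7 CPM in KO and 267.5 to 272.4 CPM in WT at 6 months. This sum is held mostly by Rorb (147 CPM in KO and 68.8 CPM in WT at 18 months) and Cux2 (28.3 and 36 CPM). Of the 9 excitatory markers tested, 1 was called higher and 4 lower in KO at 18 months (median log2 fold change -0.95). At 6 months 0 were called higher and 2 lower (median -0.05). Over all genes tested, 14.7% were called higher and 17.4% lower at 18 months, and 19.2% and 19.6% at 6 months. The 2 lower excitatory markers at 6 months are near that share.

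Per 1000 CPM of the general neuron markers, Grin1 was at 7.22 ± 2.78 CPM in KO and 12.5 ± 2.2 CPM in WT at 18 months, and at 36.2 ± 6.76 CPM in KO and 96.4 ± 3.09 CPM in WT at 6 months. Grin2a was at 6.22 ± 0.351 CPM in KO and 16.8 ± 1.93 CPM in WT at 18 months, and at 34.5 ± 1.51 CPM in KO and 66 ± 4.7 CPM in WT at 6 months. Grin2d was at 3 ± 0.11 CPM in KO and 7.32 ± 0.912 CPM in WT at 18 months. At 6 months Grin2d did not separate the genotypes on this scale (6.07 to 9.2 CPM per 1000 in KO, 7.57 to 8.66 in WT). The sum of the general neuron markers is held mostly by Map2, Tubb3 and Ndrg4 (271, 48.3 and 46.3 CPM in KO at 18 months). Without them, a choice made after seeing the data, Grin1 no longer separated the genotypes at 18 months (41.7 to 74.7 CPM per 1000 in KO, 52.1 to 75.9 in WT) and was lower in KO at 6 months (113 to 140 in KO, 294 to 298 in WT). Among the other markers Syt1 (log2 fold change -1.08), Nefl (-1.14), Snap25 (-0.88) and Rbfox3 (-0.82) fell at 18 months by as much as Grin1 (-0.82) or more. Nefl had 13 to 18 reads per KO library there and Rbfox3 15 to 18. Stmn2 (1.09 CPM in KO and 2.31 in WT), Syn1 (9.52 and 16), Nefm (0.937 and 1.35) and Elavl4 (3.19 and 4.22) were lower on average. Syp was higher (15.1 and 13.6). Grin2a stayed lower in KO without Map2, Tubb3 and Ndrg4, at 47.5 to 52.6 in KO and 73.8 to 98.5 in WT at 18 months, and at 120 to 122 in KO and 189 to 216 in WT at 6 months. Grin2b was at 79.2 ± 3.15 CPM in KO and 55.3 ± 3.09 CPM in WT at 18 months, and at 128 ± 2.88 CPM in KO and 173 ± 13.9 CPM in WT at 6 months, with the same directions as its own level, which also held without those 3 markers. Per 1000 CPM of the oligodendrocyte precursor markers summed below, Grin2b kept these directions. It was at 27 ± 0.594 CPM in KO and 11.4 ± 0.22 CPM in WT at 18 months. At 6 months it was at 44.5 ± 2.16 CPM in KO and 60.4 ± 3.89 CPM in WT. Against the 8 GABA neuron markers, Grin1 did not separate the genotypes at 18 months (220 to 400 CPM per 1000 in KO, 240 to 303 in WT) and was higher in KO at 6 months (574 to 724 in KO, 513 to 537 in WT). The 6-month direction turned without Gad1, which alone was at 14.7 CPM in KO and 129 CPM in WT: Grin1 was then at 994 to 1310 CPM per 1000 in KO and 1420 to 1570 in WT.

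Grin3a was set beside both stages of the oligodendrocyte lineage. The 10 precursor markers summed to 1183 to 1266 CPM in KO and 1955 to 2022 CPM in WT at 18 months, and to 1707 to 1809 CPM in KO and 3077 to 3093 CPM in WT at 6 months. Of them 9 were called lower and 0 higher at 18 months, and 8 lower and 1 higher at 6 months. The 1 higher was Sox10, at 570 CPM in KO and 368 CPM in WT at 6 months. At 18 months Sox10 was at 371 CPM in KO and 715 CPM in WT, so at both ages it had the direction of the mature oligodendrocyte markers. Cspg4 is also in the list of pericyte and endothelial markers. The sum therefore does not stand for precursors alone. Per 1000 CPM of these markers, Grin3a was higher in KO at 18 months, against the direction of its own level, and lower in KO at 6 months. The 6-month direction depends on Sox10, which holds a large part of the KO sum at that age. It was at 23.4 ± 1.63 CPM in KO and 18.3 ± 1.13 CPM in WT at 18 months, and at 19.9 ± 0.993 CPM in KO and 24.6 ± 0.505 CPM in WT at 6 months. Per 1000 CPM of the general neuron markers, Grin3a was lower in KO at both ages (68.4 ± 0.535 CPM in KO and 88.8 ± 2.25 CPM in WT at 18 months, 57.5 ± 6.94 CPM in KO and 70.4 ± 0.312 CPM in WT at 6 months). The 18-month direction depends on Map2, Tubb3 and Ndrg4. The other 9 neuron markers summed to 50.8 to 53.1 CPM in KO and 75.1 to 86.6 CPM in WT at 18 months. That fall is larger than the one of Grin3a (28.6 and 36.4 CPM on average). Grin3a at 6 months was not set against the sum without those 3 markers. The 12 markers of mature oligodendrocytes went against Grin3a at 6 months, with 12 called higher in KO, and with it at 18 months, with 12 called lower.

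Microglial and vascular markers differed too, though not in every comparison. All 10 microglial markers were called lower in KO at 18 months (median log2 fold change -1.49), with sums of 76.86 to 78.71 CPM in KO and 172.3 to 185.1 CPM in WT, while 3 were higher and 0 lower at 6 months. With age all 10 were lower in KO, and 3 higher and 0 lower in WT. Of 10 pericyte and endothelial markers 5 were higher and 1 lower in KO at 18 months, and 3 higher and 3 lower at 6 months. With age 9 were lower in WT and 3 in KO. Of all genes tested, 14.7% were called higher and 17.4% lower in KO at 18 months, and 19.2% and 19.6% at 6 months. With age, 28.2% were called higher and 30.8% lower in WT, and 13.8% and 17.9% in KO. The counts of 3 of 10 are not far from these shares.

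**Figure D5:**
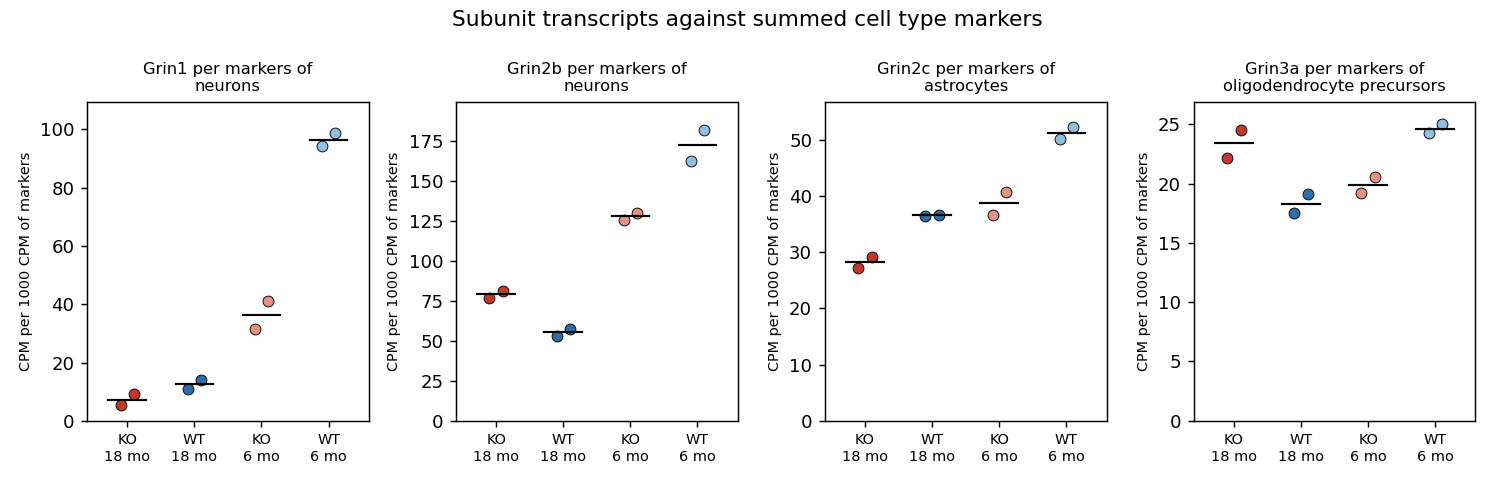
Grin1 and Grin2b per 1000 CPM of 12 neuron markers, Grin2c per 1000 CPM of 14 astrocyte markers and Grin3a per 1000 CPM of 10 oligodendrocyte precursor markers. Points are libraries and bars are means of 2 libraries. Grin2c is lower in KO than in WT at both ages on this scale (28.2 and 36.6 at 18 months, 38.7 and 51.2 at 6 months), and Grin3a is higher in KO at 18 months (23.4 and 18.3) and lower in KO at 6 months (19.9 and 24.6). The 6-month direction of Grin3a depends on Sox10 in the marker sum.

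Most partners of the receptor were called lower in KO at both ages, as Grin1, Grin2a, Grin2d and Grin3a were. Of 22 scaffold and signalling genes 14 were called lower and 3 higher in KO at 18 months (median log2 fold change -0.39), and 19 lower and 3 higher at 6 months (-1.08), where the median of all genes was 0 and 17.4% and 19.6% of them were called lower. With age, 18 were called lower and 1 higher in KO, where 17.9% of all genes were called lower, and 19 lower and 3 higher in WT, where 30.8% were. Camk2b, a subunit of the calcium-dependent kinase that binds GluN2B, had 8.53 ± 2.45 CPM in KO and 15.4 ± 0.519 CPM in WT at 18 months, and 43.5 ± 5 CPM in KO and 168 ± 4.12 CPM in WT at 6 months. It fell at both ages, 1.83-fold at 18 months (edgeR adjusted p = 0.000103) and 3.87-fold at 6 months (2.83e-13). Rasgrf1, an exchange factor activated downstream of the receptor, also fell at both ages (1.36-fold and 2.89-fold).

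The 3 genes of that list that rose at 18 months were Kalrn, Dlgap1 and Dlg4. Kalrn, an exchange factor of dendritic spines, had 81.3 ± 0.483 CPM in KO and 67.1 ± 0.316 CPM in WT at 18 months, and 180 ± 1.17 CPM in KO and 454 ± 6.15 CPM in WT at 6 months. It rose 1.21-fold at 18 months (edgeR adjusted p = 0.00154) and fell 2.52-fold at 6 months (1.33e-14), the directions of Grin2b. The scaffold gene Dlgap1 rose 1.21-fold (adjusted p = 0.00758) and fell 2.47-fold (5.05e-13). Dlg4 encodes PSD-95, the scaffold that anchors GluN2 tails, and is named after its values were seen. It rose 1.25-fold at 18 months (edgeR adjusted p = 0.00348) and fell 1.63-fold at 6 months (4.81e-08). Dlg1, Dlg2 and Ephb2, also named after their values were seen, were the genes that rose at 6 months (log2 fold changes 0.77, 0.33 and 0.60).

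Genes for the co-agonists glycine and D-serine had no common direction. Of 13 genes 12 were tested, and 3 were called higher and 2 lower in KO at 18 months, and 3 higher and 4 lower at 6 months. Of all genes 14.7% were called higher and 17.4% lower at 18 months, and 19.2% and 19.6% at 6 months, and the count of lower genes at 18 months is near that share. Their median log2 fold change was -0.08 at 18 months and 0.03 at 6 months. The amino acid transporter Slc1a4 had 187 ± 4.6 CPM in KO and 83.2 ± 1.92 CPM in WT at 18 months, and 145 ± 5.98 CPM in KO and 313 ± 17.3 CPM in WT at 6 months. It rose 2.25-fold at 18 months (edgeR adjusted p = 2.15e-12) and fell 2.16-fold at 6 months (1.03e-12). Slc7a10, which exchanges D-serine and other small amino acids, rose 1.84-fold and fell 1.94-fold, and Gldc of the glycine cleavage system rose 1.98-fold and fell 1.66-fold, at 18 and 6 months. These 3 had the directions of Grin2c. Psat1 of serine synthesis had the opposite pattern, 1.42-fold lower at 18 months (edgeR adjusted p = 1.79e-07) and 1.46-fold higher at 6 months (7.03e-08).

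The genes most like each subunit were found by Pearson's r of log2 CPM over the 8 libraries, among genes of at least 10 CPM on average. The libraries come from 4 groups, so high values are common, and 1% of the 9502 genes compared with Grin1 reached 0.986. Closest to Grin1 were Celf3 (0.9986), Pip5k1c (0.9985) and the calcium channel gene Cacna1h (0.9979). Closest to Grin2a were the spectrin gene Sptbn4 (0.9992), Eef1a2 (0.9989) and the dynamin gene Dnm1 (0.9985). Sptbn4 was at 4.93 ± 0.262 CPM in KO and 12.7 ± 0.619 CPM in WT at 18 months, and at 41.1 ± 1.46 CPM in KO and 126 ± 5.81 CPM in WT at 6 months. Closest to Grin2b were Trerf1 (0.9979), Tsc22d1 (0.9968) and Ppp1r12b (0.9955), and to Grin2d Gpc1 (0.9975), Ppp1r9b (0.9958) and Cyfip2 (0.9934). Closest to Grin2c were Pcdhgc5 (0.9984), whose reads other genes of the clustered protocadherins may share, the neurocan gene Ncan (0.998) and Mboat7 (0.9976). Ncan was at 199 ± 19.5 CPM in KO and 127 ± 8.76 CPM in WT at 18 months, and at 238 ± 18.4 CPM in KO and 505 ± 7.64 CPM in WT at 6 months. Grin3a was nearest to Itm2c (0.9918), Mogs (0.9911) and the contactin gene Cntn1 (0.9898).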

How the data were processed

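The authors deposited raw read counts per Ensembl gene, 1 file per library. Per the submitters' processing notes, these were made on mm10 with featureCounts 1.5.0-p1, STAR 2.5.2a and CASAVA 1.8.2; the annotation release and the strand and multi-mapping settings were not given in the sources used here. Symbols, positions and exon lengths came from GENCODE vM21 (same build), which named 99.8% of the IDs. The quasi-likelihood test of edgeR 4.0.16 (R 4.3.3) was run on TMM-scaled counts that passed filterByExpr (min.count 10), with the 4 groups in 1 model (4 residual and 19.1 prior degrees of freedom) and Benjamini-Hochberg adjustment over 18205 genes. CPM values use the TMM-scaled totals, and intervals are SE times the t quantile 2.07. The method was tested on simulated data. Alternatives were DESeq2 1.42.0, RLE scaling, no filter, a fit of the compared groups alone, a replicate block and leaving out each library. No pair of libraries of a group was 1 library deposited again (chi-square per gene 2.62 to 5.16). Named besides the members were Dnmt1, up to 4 genes per list with the smallest p in the interaction or in KO against WT at 6 months, and the 3 genes most like each member. Members and lists were chosen with earlier results of these data known. Floors cover counting error only.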

Additional observations from a re-analysis of the deposited data

Results flagged for a closer look

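The effect of the genotype on 4 of the 6 subunit genes differed between the ages by the interaction term, where 39.1% of all genes tested did (edgeR, adjusted p at most 0.05). As the log2 fold change of KO over WT at 18 months less that at 6 months, the values were 1.85 for Grin2c, 1.79 for Grin2b, 1.43 for Grin1 and 0.78 for Grin3a. Grin2c and Grin2b were higher in KO at 18 months and lower in KO at 6 months, while Grin1 and Grin3a were lower in KO at both ages and less so at 18 months. All of the values include the WT libraries at 6 months, which stood apart from the others, and the part of these libraries was not tested.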

How the results depend on the processing

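Of 384 values of single subunits under 13 alternatives, 371 kept their direction and their side of the threshold, 13 kept the direction but lost the call, and 0 reversed. The lost calls concern Grin1, Grin2d and Grin3a at 18 months, Grin2d at 6 months, and Grin2c and Grin3a between the ages in KO, and their values stand in the report. The 6 calls at 18 months became 4 to 6 with 1 library left out, the 6 at 6 months 5 to 6, the 6 between ages in KO 4 to 6 and in WT 6, and the 4 interaction calls stayed at 4. Over all genes the calls between ages in KO dropped to 3736 with DESeq2, against 5775 with edgeR. With 1 library left out they ranged from 3255 (without KO replicate 2 at 6 months) to 6285, and were 3540 without KO replicate 1 at 18 months; the calls of KO against WT at 18 months ranged from 3737 (without WT replicate 2) to 6355, against 5844. The ratio of Grin2c to the summed neuronal subunits or to Grin1 kept its direction under all alternatives run, with log2 differences of 0.51 to 1.51 at 18 months and 0.35 to 1.1 at 6 months (KO from WT), and 1.4 to 2.71 in KO and 1.17 to 2.3 in WT (18 from 6 months). Ratios to Grin2a, Grin2b or Grin2d alone were not among these alternatives. By the fitted folds, Grin2c fell more than Grin2d in KO at 6 months (2.21-fold and 1.89-fold) and with age in WT (4.17-fold and 2.87-fold). A ratio to Grin2d would go the other way there. Per GABA neuron markers, the log2 difference of Grin1 in KO from WT at 6 months was 0.31 and turned to -0.38 without Gad1, and per neuron markers that at 18 months was -0.79 and became -0.14 without Map2, Tubb3 and Ndrg4, both settings chosen after seeing the data. Replicate numbers were shared between groups, but same-numbered libraries did not deviate together (correlations -0.00375 to 0.0625 over 6 pairs of groups). With the replicate block all 6 subunits were called in each pairwise comparison and 4 in the interaction, and 7421, 6322, 6301, 11005 and 7494 genes were called at 6 months, at 18 months, between ages in KO, in WT and in the interaction, so it changed no subunit's call. Depth limits Grin1, Grin2a and Grin2d at 18 months, with 14 to 96 reads per library.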

Other observations

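A further subunit gene, Grin3b, is not among the 6 and was looked up after their values were seen. It had 1.24 ± 0.565 CPM in KO and 0.761 ± 0.0123 CPM in WT at 18 months, and 1.82 ± 0.302 CPM in KO and 2.94 ± 0.259 CPM in WT at 6 months (SD, n = 2). Of its comparisons edgeR called that of 18 against 6 months in WT (log2 fold change -1.93, adjusted p = 0.000999). Grin1os, antisense to Grin1, had 36 reads in one WT library at 6 months and 9 in the other, a spread that Grin1 did not share (609 and 664 reads).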
